A study of Homo sapiens with 4 samples.

Results

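Keratins are the intermediate filament proteins of epithelial cells. A type I keratin pairs with a type II keratin, and the pairs assemble into filaments that are anchored at desmosomes, which join neighbouring cells, and at hemidesmosomes, which join cells to the matrix. Simple epithelia such as the lining of the stomach use mainly keratin 8 with keratin 18 and keratin 19, and which further keratins a cell makes is widely used to tell epithelial cell states apart. The 10 keratin genes described here were KRT8, KRT7, KRT80 and KRT5 of type II and KRT18, KRT19, KRT20, KRT23, KRT17 and KRT10 of type I. They were found by symbol among the 46427 genes of the deposited table, all 10 were present, and all 10 passed the filter on low counts with 17781 genes in all.

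mRNA was sequenced in SNU638 cells, a human line established from gastric cancer, with the control vector (Control) or the YTHDF1 vector (YTHDF1) and 2 libraries for each. YTHDF1 is a protein that binds mRNA carrying N6-methyladenosine. All 4 cultures were kept without serum for 24 h and then received IFN‐γ at 10 ng/ml, for 8 h by the labels and for 24 h by the legend of the RNA-seq plot, so no untreated cells were compared. The labels number the libraries of each vector as biological replicates 1 and 2 and say no more about the number, and the promoter of the vector was not given in the sources used here.

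Total counts ran from 57398137 to 60864942 per library. YTHDF1 itself had 82.2 and 80.3 CPM (counts corrected for library size) in Control replicates 1 and 2, and 16494.5 and 2628 CPM in YTHDF1 replicates 1 and 2. Of the 17781 genes, 23% were higher and 28.7% were lower in the libraries numbered 2 at an adjusted p under 0.05. The summed level of the 8 epithelial markers was 521 to 724 CPM over the libraries. Among them, EPCAM, an adhesion protein of epithelial cells, had 242 to 284 CPM and CDH1, the E-cadherin of cell junctions, had 34.7 to 52.8 CPM. The claudin CLDN4 had 0.934 to 56.6 CPM, so not every marker was high in every library. In contrast, the summed level was 6.58 to 11.8 CPM for 6 fibroblast markers, 6.56 to 7.48 CPM for 5 leukocyte markers and 0.232 to 0.934 CPM for 4 endothelial markers. In bulk RNA, fewer cells of a type and less RNA per cell cannot be told apart.

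The members fell into levels that differed over more than 3 orders of magnitude. KRT8 had 2215.7 CPM in Control replicate 1, 3594 CPM in Control replicate 2, 2081 CPM in YTHDF1 replicate 1 and 3818 CPM in YTHDF1 replicate 2. KRT18, its usual partner, had 957, 1816, 891 and 1903 CPM in the same order. In both genes the 2 libraries numbered 2 lay above the 2 libraries numbered 1, whichever vector the cells carried. To compare genes with each other, CPM were divided by the length of the transcript in kb. On this scale KRT8 was highest in every library and had a mean of 1649 CPM per kb over the 4 libraries, KRT18 933, KRT19 460.4, KRT23 365, KRT7 34.8, KRT20 30.7, KRT17 29.5, KRT10 7.89, KRT80 0.547 and KRT5 0.434. The order of KRT19 and KRT23 depended on the replicate number. KRT23 had 195 and 199 CPM per kb in the libraries numbered 1 against 408 and 398 for KRT19, whereas in the libraries numbered 2 it had 520.2 and 544 against 516 and 519. KRT7, KRT20 and KRT17 lay close together, as each had 36.5 to 46.1 CPM per kb in the libraries numbered 2. KRT80 and KRT5 were also neighbours whose ranges overlapped, with 0.158 to 1.08 and 0.167 to 0.658 CPM per kb.

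**Figure D1:**
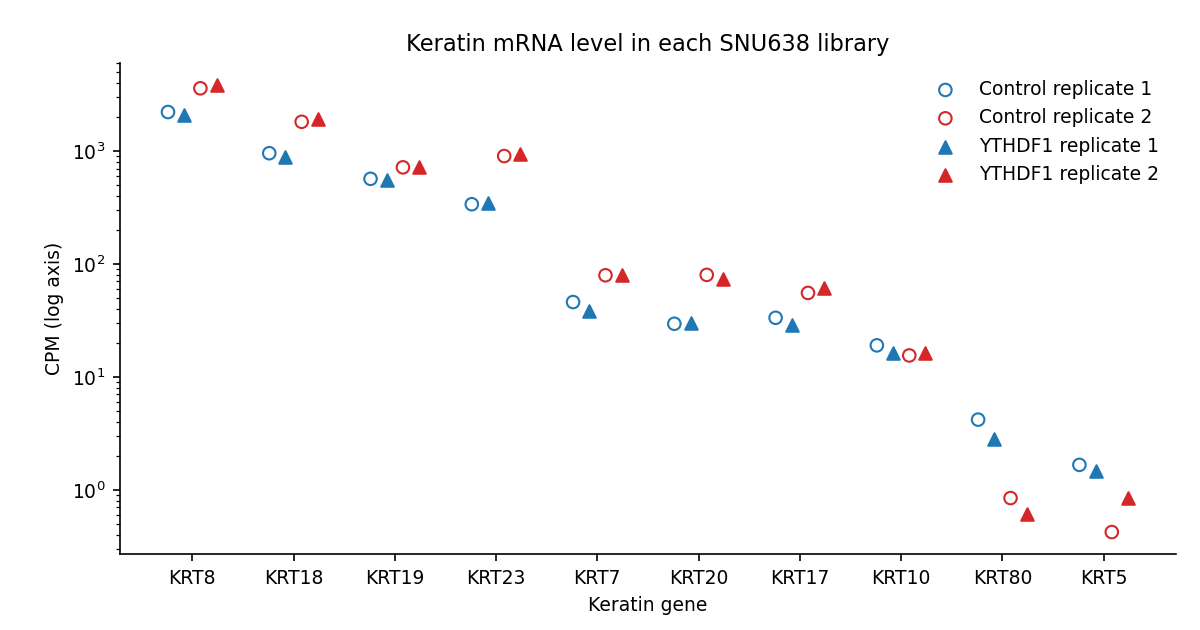
Level of each keratin gene in CPM (log axis) in the 4 libraries, with open circles for Control, filled triangles for YTHDF1, blue for replicate number 1 and red for replicate number 2. The red points lie above the blue ones for the 7 genes from KRT8 to KRT17 and below them for KRT10, KRT80 and KRT5, while circles and triangles of a colour lie close together in all but KRT80 and KRT5.

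For 3 members the 250 bases before the gene start are shown, since they stand for the different patterns described below: KRT20 was higher and KRT5 lower in the libraries numbered 2, and KRT10 did not pass the test. They are RefSeq sequences of GRCh38.p14, read 5′ to 3′ on the minus strand at chr17:40885243-40885492 for KRT20, chr12:52520395-52520644 for KRT5 and chr17:40822615-40822864 for KRT10. Capitals mark matches to TATAAA, the letters of a TATA box, or to ATAAAA, a related run of letters, on either strand.
KRT20: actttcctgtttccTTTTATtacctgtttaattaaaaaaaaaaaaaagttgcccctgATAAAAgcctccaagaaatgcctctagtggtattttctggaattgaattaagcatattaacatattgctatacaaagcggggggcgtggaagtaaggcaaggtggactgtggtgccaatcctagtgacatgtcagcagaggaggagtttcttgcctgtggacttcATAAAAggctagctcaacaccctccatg
KRT5: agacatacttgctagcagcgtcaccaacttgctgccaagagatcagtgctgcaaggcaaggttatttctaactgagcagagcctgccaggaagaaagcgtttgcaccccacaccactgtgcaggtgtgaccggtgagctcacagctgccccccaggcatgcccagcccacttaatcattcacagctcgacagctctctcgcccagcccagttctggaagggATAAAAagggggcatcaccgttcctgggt
KRT10: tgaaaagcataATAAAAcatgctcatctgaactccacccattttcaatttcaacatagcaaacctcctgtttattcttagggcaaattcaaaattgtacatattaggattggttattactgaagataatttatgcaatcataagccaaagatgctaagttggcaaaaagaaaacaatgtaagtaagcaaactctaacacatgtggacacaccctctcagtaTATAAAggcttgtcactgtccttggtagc
ATAAAA began at position −28 from the gene start in KRT20 and at −29 in KRT5, and TATAAA began at −29 in KRT10. ATAAAA was also found at −193 of KRT20 and −239 of KRT10, with a match on the other strand at −236 of KRT20. Of all 35116 promoters of this length in the table, 10.7% held TATAAA and 14.8% held ATAAAA, and both letters match where a TATAAA is followed by A. The ATAAAA letters were chosen after these sequences were seen. The GC box GGGCGG (42.6% of all promoters), the AP-1 letters TGANTCA (6.57%) and the letters TTCNNNGAA of an interferon-gamma activated site (6.57%) did not occur on either strand of the 3 sequences. The table also held KRT8, with a start that is only one of those annotated for this gene and with none of the 5 motifs in its 250 bases, and had no entry for KRT18, KRT19, KRT7, KRT80, KRT23 and KRT17.

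The genes lie in the type II cluster on chromosome 12 and the type I cluster on chromosome 17, except that KRT18, a type I gene, lies beside KRT8. In RefSeq of GRCh38.p14, KRT8 spans chr12:52897191-52949860 and KRT18 chr12:52948855-52952906, so that the longest annotated KRT8 transcript overlaps KRT18. KRT80 spans chr12:52168996-52192014, KRT7 chr12:52233243-52255853 and KRT5 chr12:52514575-52520394. On chromosome 17 lie KRT10 (chr17:40818117-40822614), KRT20 (chr17:40875889-40885242), KRT23 (chr17:40922700-40937646), KRT19 (chr17:41523617-41528308) and KRT17 (chr17:41619442-41624575). KRT8 and KRT18 also have many processed pseudogenes, copies of their mRNA elsewhere in the genome. The 50 KRT8 pseudogenes of the table together held 916 to 1834 counts per library, or 0.727% to 0.796% of the KRT8 count, and 4 of them reached 1 CPM. The largest, KRT8P3, had 8.61 and 7.69 CPM in Control and YTHDF1 replicates 1 and 16.9 and 20.1 CPM in replicates 2, so it was high and low in the same libraries as KRT8. In the same order, KRT8P12 had 3.45 and 4.59 against 5.66 and 6.05 CPM. KRT8P33 overlapped, with 1.73 and 1.05 against 1.09 and 1.33 CPM, and KRT8P46 had 1.04 and 0.866 against 1.08 and 1.09 CPM. The 66 KRT18 pseudogenes held 75 to 83 counts per library. Reads of these copies could have been split by the authors' counting, but the counts are small beside those of the members.

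The question of the study was whether YTHDF1 overexpression changes mRNA levels in cells that receive IFN‐γ. None of the 10 keratins passed the test between the vectors: edgeR's quasi-likelihood test, adjusted over all genes by Benjamini-Hochberg, called 0 of 10 at an adjusted p under 0.05, against 0% of all genes tested, and the adjusted p was 1.00 for each. At an unadjusted p under 0.05 there were again 0 of 10, against 0.135% of all genes, and 0 of 10 also reached 0.5 in the size of the log2 difference with that p, the selection rule used for these data, against 0.101%. With the replicate number as a block, KRT80 passed this rule (log2 difference −0.52, unadjusted p = 0.0367, edgeR adjusted p = 0.999), as did 192 of all genes in place of 18. The 2 vectors overlapped in every one of the 10 keratins, whereas they did not overlap in 11.5% of all genes. This overlap says nothing further about the vector. In all 10 the replicate numbers were fully separated, as described below, and each number holds a library of each vector, so the vectors had to overlap. The median log2 difference, YTHDF1 minus Control, was −0.00043 over the members and 0.0046 over all genes. DESeq2's Wald test called 0 of the 10 at an adjusted p under 0.05.

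The log2 differences over all 4 libraries were close to 0 for the abundant simple epithelial keratins. KRT8 differed by 0.022 (standard error 0.42), KRT18 by 0.011 (standard error 0.53), KRT19 by −0.012 (standard error 0.21) and KRT23 by 0.056 (standard error 0.74). The spread between the libraries of a vector includes the difference between the replicate numbers, so that differences of the size of these errors, and larger ones, could have been missed. With the replicate number as a block, which the labels do not call a pairing, the standard error was 0.056 for KRT8, 0.049 for KRT18, 0.041 for KRT19 and 0.041 for KRT23. The values within each number are given as well. Within replicate number 1 the log2 difference was negative in 8 of the 10 genes, with KRT20 at 0.015 and KRT23 at 0.034 as the exceptions, and within replicate number 2 it was positive in 8, with KRT20 at −0.12 and KRT80 at −0.46 as the exceptions. Only KRT23 and KRT80 differed in the same direction in both numbers. The shares of all genes with these directions were not computed, so the pattern cannot be called particular to the keratins. KRT80, which is found near desmosomes, had log2 differences of −0.56 within number 1 and −0.46 within number 2, from 249 counts in Control against 167 with YTHDF1 and from 48 against 37. KRT5, a keratin of basal cells, had −0.19 within number 1 and 0.98 within number 2, where the counts were 24 in Control and 51 with YTHDF1. Among the other members, the largest difference within a number was −0.26, for KRT7 in number 1. The amount of YTHDF1 also differed between the numbers, as given above, and its part in these values was not tested.

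**Figure D2:**
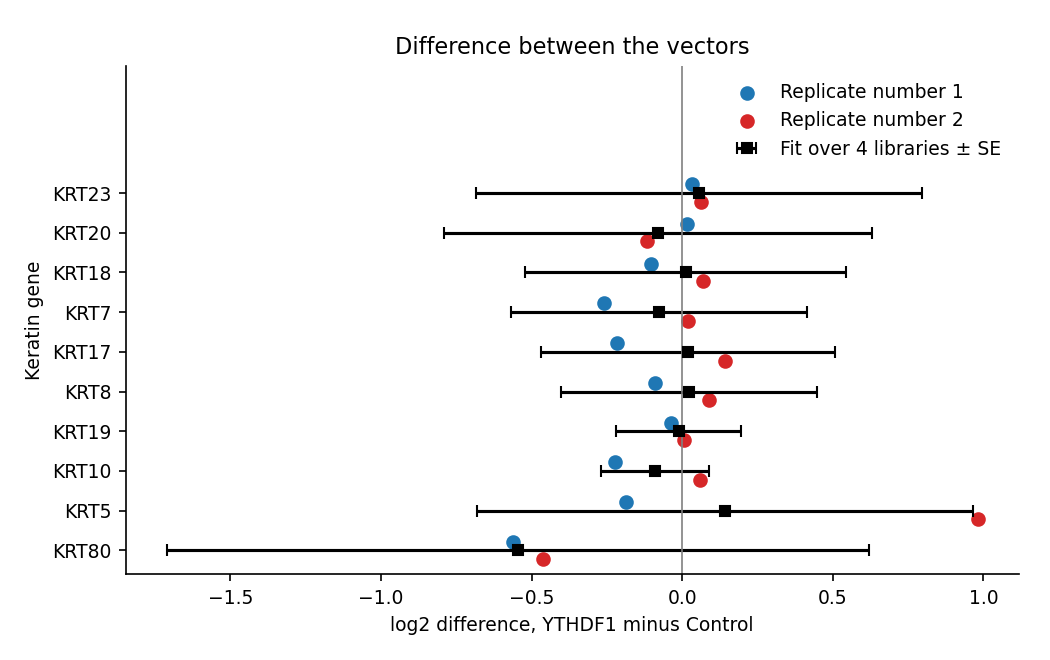
log2 difference between YTHDF1 and Control for each keratin gene (x axis), with black squares for the fit over 4 libraries and bars of ± 1 standard error, blue points for replicate number 1 and red points for replicate number 2. Every bar crosses 0, and only KRT80 lies below and only KRT23 above 0 in both numbers.

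Far larger differences separated the replicate numbers, and they were tested with the vector as a term in the model, so that each number is represented by a Control library and a YTHDF1 library. Of the 10 keratins, 7 were higher and 2 were lower in the libraries numbered 2 at an adjusted p under 0.05, against 23% and 28.7% of all genes. The 2 libraries numbered 2 lay above the 2 numbered 1 in 7 members and below them in 3, against 36.8% and 40.4% of all genes. The median log2 difference, number 2 minus number 1, was 0.85 over the members and −0.012 over all genes. The labels do not say what the number stands for or how separate the cultures were. With the vector as a term, 1 degree of freedom was left for the error, and edgeR shared the spread across genes. The p-values thus set the difference against an error that also draws on other genes. They cover only these 4 libraries, and the difference between the numbers may be technical.

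Among the keratins of simple epithelium, KRT8 rose 1.73-fold, from 2148 ± 95.6 CPM (SD, n = 2) in number 1 to 3706 ± 159 CPM (SD, n = 2) in number 2. Its log2 difference was 0.79 (standard error 0.057, edgeR quasi-likelihood adjusted p = 2.47e-06). KRT18 rose 2.01-fold, with a log2 difference of 1.01 (standard error 0.049, edgeR adjusted p = 1.64e-07), and KRT8 and KRT18 thus rose together but not to the same extent. KRT19, a type I keratin that is unusually short, had 568 and 554 CPM in the libraries numbered 1 and 718 and 721 CPM in those numbered 2. It rose 1.28-fold, with a log2 difference of 0.36 (standard error 0.041, edgeR adjusted p = 6.25e-05), which was the smallest of the 7 rises. KRT7, the type II keratin of many glandular and ductal epithelia, had 46.0 and 79.4 CPM in Control replicates 1 and 2 and 38.5 and 80.5 CPM in YTHDF1 replicates 1 and 2. Its log2 difference was 0.93 (standard error 0.068, edgeR adjusted p = 2.74e-06).

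KRT23 and KRT20 had the largest rises among the 10 members. KRT23, a type I keratin described in tumours of the digestive tract, had 338 and 346 CPM in Control and YTHDF1 replicates 1 and 903 and 944 CPM in replicates 2. This was a 2.70-fold rise with a log2 difference of 1.43 (standard error 0.042, edgeR adjusted p = 4.58e-09). KRT20, the keratin of differentiated intestinal and gastric surface cells, had 29.6 and 29.9 CPM in replicates 1 and 80.1 and 73.9 CPM in replicates 2, in the order Control and YTHDF1. It rose 2.59-fold, with a log2 difference of 1.37 (standard error 0.057, edgeR adjusted p = 5.64e-08). In both genes the libraries of a number differed by far less than the numbers did. KRT17, a keratin of activated and injured epithelium, had 33.4 and 28.7 CPM in number 1 and 55.4 and 61.2 CPM in number 2, and its log2 difference was 0.91 (standard error 0.081, edgeR adjusted p = 1.07e-05).

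KRT80 and KRT5 went the other way. KRT80 had 4.19 and 2.84 CPM in the libraries numbered 1 and 0.846 and 0.613 CPM in those numbered 2, and was 4.81-fold higher in number 1. Its log2 difference was −2.26 (standard error 0.22, edgeR adjusted p = 2.15e-05). KRT5 had 99 and 86 counts in number 1 and 24 and 51 in number 2, which is 1.67, 1.46, 0.423 and 0.845 CPM. Its log2 difference was −1.34 (standard error 0.34, edgeR adjusted p = 0.00823), and it was −1.95 between the Control libraries and −0.78 between the YTHDF1 libraries. Without Control replicate 2 the difference of KRT5 was −0.88 and edgeR's adjusted p was 0.0501, and DESeq2's Wald test gave an adjusted p of 0.0751. KRT10, a keratin of the upper layers of skin, had 19.0 and 16.3 CPM in number 1 and 15.5 and 16.1 CPM in number 2. It did not pass the test (log2 difference −0.16, standard error 0.088, edgeR adjusted p = 0.167), although without YTHDF1 replicate 1 edgeR's adjusted p was 0.0310 at a difference of −0.26.

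**Figure D3:**
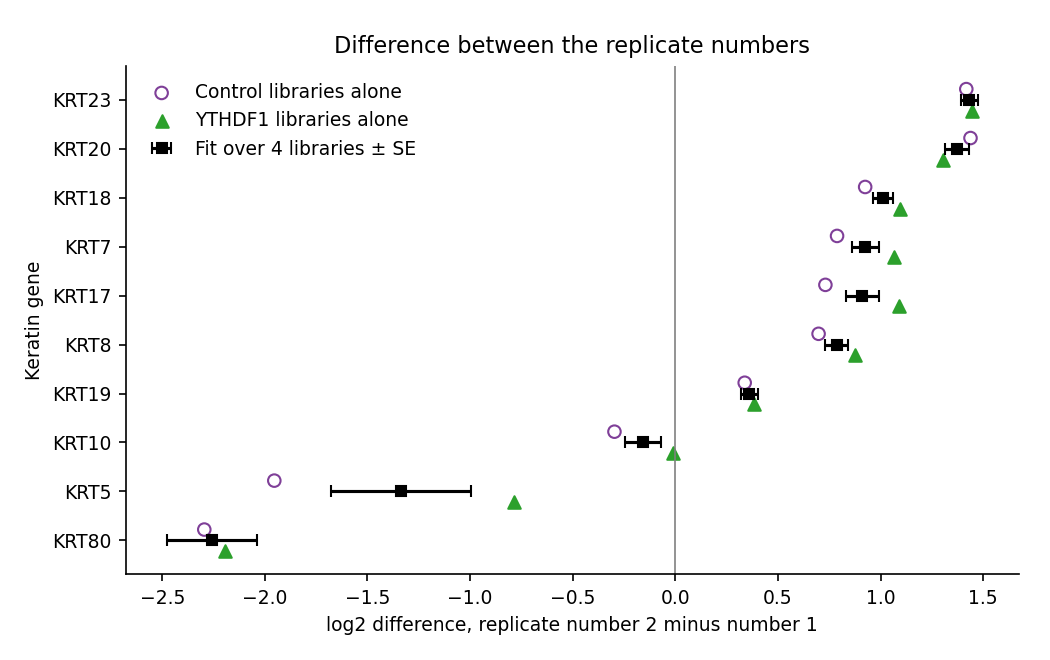
log2 difference between the libraries numbered 2 and those numbered 1 for each keratin gene (x axis), with black squares for the fit over 4 libraries and bars of ± 1 standard error, circles for the Control libraries alone and triangles for the YTHDF1 libraries alone. The 7 genes from KRT23 to KRT19 lie above 0 in both vectors, and KRT80 and KRT5 lie below 0 in both.

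The summed level of the 10 members was 4212 and 3989 CPM in the libraries numbered 1 and 7262 and 7619 CPM in those numbered 2, and its make-up shifted as well. Per kb of transcript, KRT8 made up 48.6% and 48.1% of the summed level in number 1 and 45.9% and 46.5% in number 2. The share of KRT23 went from 7.58% and 8.19% to 11.8% and 11.8%, while that of KRT19 went from 15.9% and 16.4% to 11.7% and 11.2%. The ratio of KRT18 to KRT8 per kb was 0.514 and 0.510 in number 1 and 0.602 and 0.593 in number 2. Type I and type II keratins stayed near equal amounts, with a type I to type II ratio of 1.01 and 1.04 in number 1 and 1.13 and 1.11 in number 2. These ratios did not overlap between the numbers and are given as values without a test. Transcript lengths came from GENCODE models, and transcript ends that differ from these models in SNU638 would shift them.

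**Figure D4:**
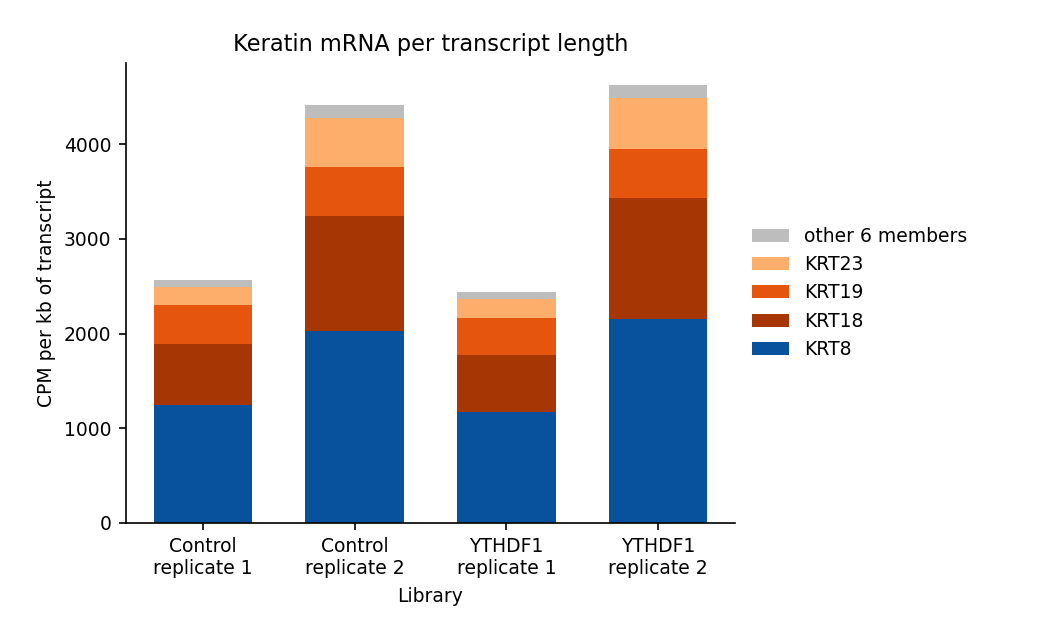
Stacked bars of the keratin level per kb of transcript in each library (y axis from 0), with KRT8 (type II) in blue, the type I genes KRT18, KRT19 and KRT23 in orange shades and the other 6 members in grey. The bars numbered 2 are taller than those numbered 1, and the KRT23 part grew from 7.58% and 8.19% to 11.8% and 11.8% of the bar.

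Of the 45 other functional keratin genes in the table, 24 had a count of 0 in all libraries and 2 reached 1 CPM in any library. KRT15, a keratin of basal and progenitor cells, had 12.9 and 12.8 CPM in number 1 and 13.8 and 15.6 CPM in number 2, and did not pass the test between the numbers (log2 difference 0.19, standard error 0.086, edgeR adjusted p = 0.0874). KRT222, which belongs to the type I family by sequence, had 184 and 200 counts in the libraries numbered 1 and 6 and 0 in those numbered 2 (edgeR adjusted p = 1.37e-05).

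The genes of the following lists are to be read against the 23% of all genes that were higher and the 28.7% that were lower in the libraries numbered 2. Of 17 desmosome and plakin genes, 13 were tested between the numbers, of which 2 were higher, 5 were lower and 6 did not pass, with a median log2 difference of −0.0082, which is close to −0.012 over all genes. PLEC (plectin), which links keratin to other parts of the cytoskeleton, was among the higher ones, with a log2 difference of 0.25 (standard error 0.045, edgeR adjusted p = 0.00112). DSG2, a desmosomal cadherin, was nearly level with 345 and 364 CPM in number 1 and 348 and 356 CPM in number 2, and EVPL (envoplakin) had a log2 difference of −0.0082. DSC3, another desmosomal cadherin, had 1205 and 1282 counts in number 1 and 7 and 0 counts in number 2. DSC2 fell by 0.76 on the log2 scale (edgeR adjusted p = 4.16e-06) and PPL (periplakin) fell by 0.60 (edgeR adjusted p = 1.05e-04), while DSG3 differed by 0.61 with an adjusted p of 0.267 from the same edgeR test. Among the 8 hemidesmosome genes, 3 were higher, 4 were lower and 1 did not pass. ITGA6, an integrin subunit of the hemidesmosome, had 316 and 348 CPM in number 1 and 570.2 and 547 CPM in number 2. LAMB3, a chain of laminin 332, had 32.9 and 33.6 CPM in number 1 and 1.06 and 1.16 CPM in number 2, and LAMA3, another chain of it, had 10.2 and 10.3 against 1.29 and 1.08 CPM. COL17A1 had 1.73 and 0.968 against 0.106 and 0.133 CPM, and the least different gene was ITGB4, the partner of ITGA6, with a log2 difference of 0.016. CD151, a tetraspanin that binds these integrins, fell by 0.17 (edgeR adjusted p = 0.0122).

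Of the other intermediate filament genes, 9 of 14 were tested, of which 1 was higher, 6 were lower and 2 did not pass. VIM (vimentin), the filament of mesenchymal cells, was the higher one, with 12.8 and 12.5 CPM in number 1 and 18.6 and 18.7 CPM in number 2, a log2 difference of 0.56 (standard error 0.077, edgeR adjusted p = 2.20e-04). SYNM (synemin) had 214 and 231 counts in number 1 and 7 and 5 in number 2. DES fell by 1.53 on the log2 scale, NES fell by 1.52 and PRPH fell by 1.51. DES and PRPH were low in all libraries. DES had 66 and 63 counts in number 1 and 20 and 24 in number 2, and PRPH had 74 and 73 against 24 and 27. NES had 464 and 433 against 165 and 144 counts. The nuclear lamins LMNB2 and LMNA had log2 differences of 0.072 and −0.14, of which the second passed the test (edgeR adjusted p = 0.0302). Of 8 genes of keratin-binding and cornified envelope proteins, 5 were tested and 1 passed, CSNK1A1, a kinase that FAM83H brings to keratin filaments, which fell by 0.39 (edgeR adjusted p = 4.59e-05). TGM1 had a log2 difference of −0.59, TCHP of −0.17, TRADD of −0.12 and FAM83H of −0.062 without passing.

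Among 13 genes known to regulate keratin genes, 11 were tested between the numbers, of which 7 were lower and 3 did not pass, with a median log2 difference of −1.63 over the 11. CDX2, the intestinal homeobox factor, had 499 and 516 counts in number 1 and 0 and 3 counts in number 2, and GLI2 had 211 and 194 against 3 and 3. KRT20, an intestinal keratin, was thus higher in the libraries in which CDX2 was at or near 0, and the part of CDX2 in its level was not tested. ELF3, an epithelial ETS factor, had 32.9 and 38.5 CPM in number 1 and 3.03 and 2.96 CPM in number 2, and FOS had 18.3 and 35.5 against 4.16 and 4.42 CPM. KLF5 and GRHL3 were the least different, with log2 differences of −0.058 and 0.0063. TP63, a regulator of KRT5, had at most 3 counts in any library and CDX1 had 0 counts in all.

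The epithelial markers moved with the number too, but mostly in the direction opposite to the simple epithelial keratins. Of the 8 markers 7 were lower and 1 was higher in the libraries numbered 2, with a median log2 difference of −0.46. EPCAM fell by 0.18 (edgeR adjusted p = 0.00815) and CDH1 fell by 0.58 (edgeR adjusted p = 2.02e-05). CLDN4, a tight junction claudin, had 55.0 and 56.6 CPM in number 1 and 0.934 and 0.994 CPM in number 2. ESRP2, a splicing factor of epithelial cells, was the higher one, with a log2 difference of 0.15 (edgeR adjusted p = 0.0261), while its relative ESRP1 fell by 0.99 (edgeR adjusted p = 2.39e-07). The part of these genes in the levels of the keratins was not tested. Between the vectors, edgeR called 0 genes in these lists, and 0 had an unadjusted p under 0.05.

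**Figure D5:**
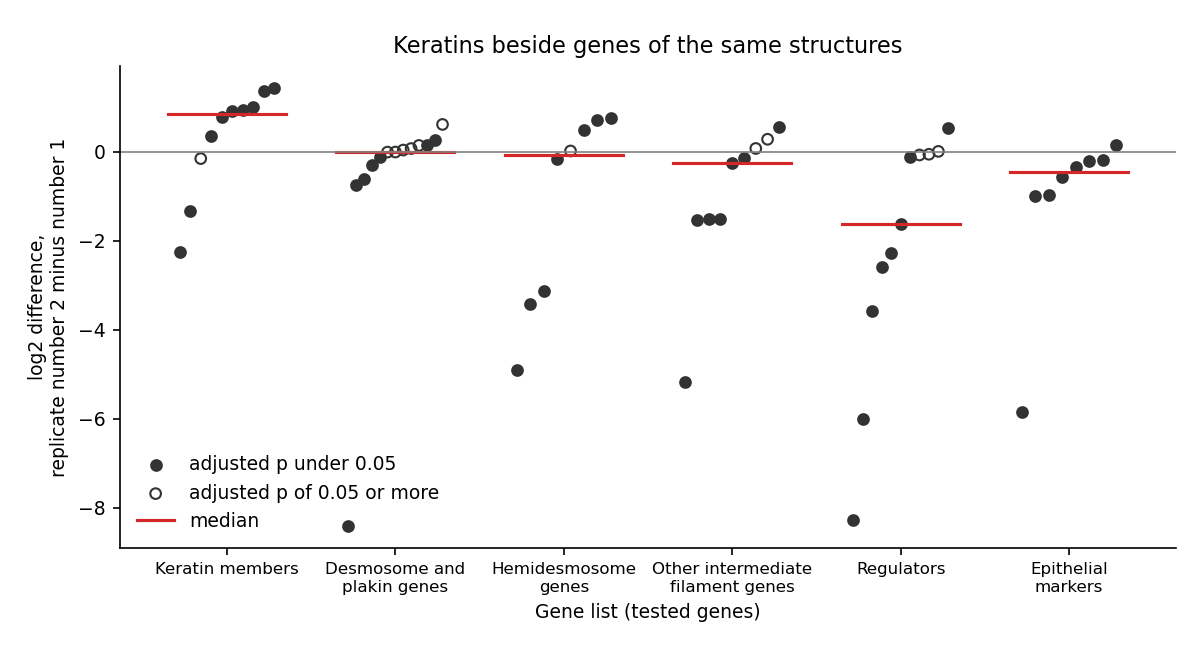
log2 difference between the libraries numbered 2 and those numbered 1 (y axis) for the tested genes of each list, with filled points for an adjusted p under 0.05, open points for the others and red lines for the median. The keratin median lies at 0.85, and those of the other lists shown lie between −1.63 and −0.0082, with the lowest points (such as DSC3 and CDX2) resting on counts near 0 in number 2, where the fitted size depends on the prior count.

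Over the 4 libraries, the genes outside the keratins whose pattern lay closest to that of KRT8, by the Euclidean distance of centred log2 CPM among 9980 genes with a mean of at least 10 CPM, were BMPR2 (distance 0.038), ZNF488 (0.043) and HES6 (0.044). For KRT80, the member with the largest difference between the numbers, they were LAD1 (0.32), MYO5B (0.40) and SYTL3 (0.42). With 4 libraries in which many genes differ between the numbers, such a pattern is widely shared.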

How the data were processed

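The authors deposited raw counts, whole numbers of reads per gene for each of 4 libraries, prepared with a stranded kit from poly(A)-selected RNA. Per the submitters' processing notes, Trimmomatic, HISAT2 and GRCh38 were used. The counting tool, its strand setting and the annotation release were not given in the sources used here.

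Counts were filtered with filterByExpr, scaled by TMM and tested with edgeR 4.0.16 (quasi-likelihood test, R 4.3.3) over 17781 genes with Benjamini-Hochberg adjustment. Vectors were compared without further terms, and replicate numbers with the vector as a term. Standard errors were obtained by dividing the log2 difference by the root of F. Differences within a number or vector used a prior count of 0.5. Lengths came from GENCODE 29 transcripts linked to the listed RefSeq transcripts. The procedure was also run on simulated data with the same spread set for every gene, and the outcome is not given here.

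The members and gene lists were chosen with earlier results of these data known. Named genes were the 10 members, other keratins reaching 1 CPM, up to 4 genes with the largest and 2 with the smallest differences of each list, and the 3 nearest genes to 2 members. Genes named beyond this rule were chosen after their values were seen. One further listed gene is not reported here. Alternatives were DESeq2 1.42.0 size factors and Wald test, no filter, pseudogene counts added, the replicate block or no vector term, and each library left out. The replicate number fits with a library left out also had no vector term, so they differ from the main fit in the model too. Figures used matplotlib 3.10.9.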

Additional observations from a re-analysis of the deposited data

How the results depend on the processing

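Between the replicate numbers, all 9 alternatives kept the direction of each of the 10 members, and the changed calls were those of KRT5 and KRT10 given above. The number of members called ran from 8 to 10 and that of all genes from 6792 to 9358. Between the vectors no alternative called a member at an adjusted p under 0.05. Without the filter, 82 genes passed the rule of the study in place of 18, and DESeq2's Wald test called 3 genes at an adjusted p under 0.05 in place of 0. Libraries of the same number deviated together from their group means (Pearson's r = 0.875 across 17781 genes, which are not independent replicates), but the labels do not say that the number pairs them. With the replicate block, 10 genes passed the adjusted p and 192 the rule of the study, and the log2 difference of KRT8 was −0.0017, of KRT18 −0.017 and of KRT17 −0.025, each with an adjusted p of 1.00 from edgeR. KRT80 was the only member to pass the rule of the study under that block, at −0.52 (standard error 0.22, unadjusted p = 0.0367, edgeR adjusted p = 0.999).

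With 1 library left out, the lone library of a vector was assumed to vary like the others and the difference between the numbers enters the value. Then 47 to 60 genes passed the rule of the study, and the log2 difference between the vectors ran from −0.49 to 0.41 for KRT8, −0.64 to 0.55 for KRT18, −0.22 to 0.17 for KRT19, −0.71 to 0.37 for KRT7, −0.88 to 0.81 for KRT20, −2.03 to 1.02 for KRT80, −0.85 to 0.93 for KRT23, −0.63 to 0.46 for KRT17, −0.53 to 1.44 for KRT5 and −0.23 to 0.066 for KRT10. In each of these fits the lone library came from a single number, while the other vector had both. Such values cannot tell the vector and the number apart. At a depth of 57398137 counts or more, the lowest counts among the members were those of KRT5 and KRT80, as low as 24 and 37. How far depth limits the results of each member was not tested.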
